A study of Mus musculus with 24 samples.

Results

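The genes described here are the expressed long intergenic noncoding RNAs (lincRNAs) of the mouse microglial line SIM-A9: the genes that GENCODE M21 types as lincRNA and that were chosen by their level, a mean over all 24 libraries of at least 1 CPM (counts scaled to library size, with factors from the trimmed mean of M-values). The difference between groups was not used in the choice. They numbered 185 of the 54838 genes in the deposited count table, which held 5624 lincRNA genes. SIM-A9 is an established microglial cell line, and the study asked how its transcriptome responds to probes used to image or manipulate neural tissue. Every well was moved to serum-free DMEM/F12 before the agent was added, and poly-A RNA was taken from adherent cells 2 h after that addition. The 8 groups of 3 libraries each were Control (labelled untreated), LPS (bacterial lipopolysaccharide), (GT)6 SWCNT (single-walled carbon nanotubes wrapped in a short DNA oligonucleotide), COOH SWCNT (carboxylated single-walled carbon nanotubes), Fura-2 (a calcium dye), DiBASC2 (also spelled DiSBAC2, a voltage-sensitive dye), Di-2-ANEPEQ (a voltage-sensitive dye) and AAV (adeno-associated virus). All cells came from 1 line in 1 medium, the labels used here give no concentration for any agent and no AAV serotype or cargo, and the control is not described as a vehicle. Nothing in the labels says that the 3 libraries of a group came from separate cultures, so the p-values measure only the spread between these libraries.

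LincRNAs are capped, often spliced and mostly polyadenylated transcripts without a long open reading frame, read from stretches of genome between protein-coding genes. Some act as scaffolds in the nucleus (Neat1 builds paraspeckles, Xist coats the inactive X chromosome), some carry small nucleolar RNAs or microRNAs in their introns or exons, and for many the RNA product has no known role. In microglia and macrophages a few are known to be induced with the inflammatory programme, among them lincRNA-Cox2 (Ptgs2os2) and the host transcript of miR-155.

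The sequences below show what the named hosts carry and where some lincRNAs that changed begin, and no result below rests on them. The first set holds mature microRNAs, from RefSeq on GRCm38.p6, that lie inside lincRNAs of the set which passed a test in at least 1 treatment, with the seed (bases 2 to 8) in capitals. The libraries were made from poly-A RNA and measured the host transcripts, not these mature forms. The miR-17 and miR-20a seeds are the same 7 letters, as are the let-7a, let-7d and let-7f seeds.
miR-155-5p (Mir155hg): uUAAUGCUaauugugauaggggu
miR-142a-3p (Mir142hg): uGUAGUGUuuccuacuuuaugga
miR-17-5p (Mir17hg): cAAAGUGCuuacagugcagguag
miR-20a-5p (Mir17hg): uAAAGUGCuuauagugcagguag
let-7a-5p (6720427I07Rik): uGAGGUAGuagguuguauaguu
let-7d-5p (6720427I07Rik): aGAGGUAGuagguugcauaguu
let-7f-5p (6720427I07Rik): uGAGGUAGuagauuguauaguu

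The second set holds start regions of lincRNAs that followed LPS or the nanotubes, each from 250 bases before to 50 bases after the RefSeq start on GRCm38.p6, written 5′ to 3′ on the gene's strand. Of the 185 lincRNAs 101 had such an entry by symbol. Capitals mark matches, on either strand, to the motif of AP-1 (TGANTCA), the cyclic AMP response element CRE (TGACGTCA) or NF-kB (searched by its usual degenerate decamer). The windows belong to Ptgs2os2 (chr1:150164899-150165198, minus strand), 9830132P13Rik (chr3:127915921-127916220, plus strand), 1110002J07Rik (chr10:66920335-66920634, minus strand), Gm34643 (chr14:103012625-103012924, plus strand) and C030037D09Rik (chr11:88718393-88718692, plus strand).
Ptgs2os2: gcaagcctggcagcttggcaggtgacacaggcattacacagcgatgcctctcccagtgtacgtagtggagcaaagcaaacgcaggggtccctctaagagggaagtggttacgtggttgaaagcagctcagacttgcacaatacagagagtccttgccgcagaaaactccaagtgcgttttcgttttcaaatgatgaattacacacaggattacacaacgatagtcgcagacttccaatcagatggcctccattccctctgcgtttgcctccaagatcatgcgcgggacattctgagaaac
9830132P13Rik: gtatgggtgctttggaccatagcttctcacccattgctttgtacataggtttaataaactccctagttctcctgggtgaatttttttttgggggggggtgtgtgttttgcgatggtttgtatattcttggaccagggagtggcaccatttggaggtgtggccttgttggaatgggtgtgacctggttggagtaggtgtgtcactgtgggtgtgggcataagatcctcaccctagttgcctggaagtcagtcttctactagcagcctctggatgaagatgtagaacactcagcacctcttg
1110002J07Rik: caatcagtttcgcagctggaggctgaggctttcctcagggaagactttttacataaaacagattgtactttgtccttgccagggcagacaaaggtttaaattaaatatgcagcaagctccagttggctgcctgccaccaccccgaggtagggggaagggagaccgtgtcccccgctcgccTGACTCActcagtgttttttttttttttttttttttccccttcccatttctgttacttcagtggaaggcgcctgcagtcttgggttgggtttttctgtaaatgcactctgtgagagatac
Gm34643: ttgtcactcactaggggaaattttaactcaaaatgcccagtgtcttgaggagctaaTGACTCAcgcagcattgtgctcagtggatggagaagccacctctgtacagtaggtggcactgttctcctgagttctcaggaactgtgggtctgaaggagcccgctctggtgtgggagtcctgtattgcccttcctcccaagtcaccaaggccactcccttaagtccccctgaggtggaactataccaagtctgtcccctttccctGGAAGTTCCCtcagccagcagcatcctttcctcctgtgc
C030037D09Rik: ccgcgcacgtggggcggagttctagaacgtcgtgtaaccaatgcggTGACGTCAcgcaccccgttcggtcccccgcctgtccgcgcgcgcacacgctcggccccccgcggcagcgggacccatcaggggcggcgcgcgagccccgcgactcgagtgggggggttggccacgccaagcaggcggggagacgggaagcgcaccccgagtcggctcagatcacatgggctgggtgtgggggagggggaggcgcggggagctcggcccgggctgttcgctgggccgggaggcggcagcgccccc

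An AP-1 match lay 70 bases before the start of 1110002J07Rik and 194 bases before that of Gm34643, and an NF-kB match began at base 12 of Gm34643, counted from its start. The C030037D09Rik window held a CRE match 204 bases before the start. The windows of Ptgs2os2 and 9830132P13Rik held none of the motifs searched, which says only that these letters are not in these 300 bases. Among all 32851 RefSeq promoter windows of this length, 7.81% held AP-1, 8.46% held NF-kB and 1.79% held CRE. Among the 116 windows of the lincRNAs, 13 held AP-1, 5 held NF-kB and 5 held CRE. The 5 with NF-kB included Gm41442 and Gm46430, which fell with LPS, beside Gm34643, which rose. A match is a description of the letters and not a measured binding site.

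Total counts per library ran from 17364272 to 29259221. The cell type label was checked against marker genes: 9 of 12 microglia and macrophage markers had a control mean of at least 10 CPM (Csf1r at 507 and Cd68 at 817 CPM), while Tmem119, P2ry12 and Aif1 stood at 4.13, 2.35 and 4.45 CPM. All 5 astrocyte, 5 fibroblast and 4 T and B cell markers stayed under 1 CPM in every library. Of the other markers Mbp had a control mean of 4.13 CPM and Map2 reached 1.03 CPM in 1 library. The summed microglial markers ranged from 2511 to 2761 CPM over all 24 libraries.

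The lincRNAs were expressed at low levels. Their mean ranged from 1.01 to 10144 CPM with a median of 2.61, against a median of 26.1 CPM over all 13116 genes tested. Only 30 of the 185 reached 10 CPM and 7 reached 100 CPM. Per kilobase of exon (RPKM, mean over all libraries) the highest were Gm42418 (5540), Bc1 (1382), Gm10076 (219), Gm43351 (109), Gm26917 (57.6), Malat1 (49.1), Tmem250-ps (42.2), Snhg6 (31.9), 2900097C17Rik (30.8; the mouse gene of Norad, a sponge for Pumilio proteins) and Xist (26). Neat1 stood at 4.01, Mir155hg at 5.54 and Ptgs2os2 at 3.36 RPKM. The exons of a lincRNA covered 168 to 20771 bases, and 29 had a single exon block. Just inside the 1 CPM threshold lay 2700033N17Rik (1.02 CPM) and 2010015M23Rik (1.01 CPM), and just outside it 1700102H20Rik (0.997 CPM) and 2010110K18Rik (0.996 CPM). In 10 lincRNAs, 9830132P13Rik and C030037D09Rik among them, the control mean was under 1 CPM, so that they met the threshold through other groups. The spread between libraries of a group was larger than over all genes: the median within-group SD was 0.233 on the log2 CPM scale, against 0.0884 over all genes tested.

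A single gene, Gm42418 (chr17:39846958-39848788, 1 exon block lying opposite an annotated ribosomal RNA gene, CT010467.1), took 0.369% to 1.68% of all counts in a library, while the other lincRNAs together took 0.233% to 0.311%. Gm42418 stood at 7571, 6583 and 11410 CPM in the controls, at 14199, 9937 and 3870 CPM with LPS, at 4534, 5802 and 13353 CPM with (GT)6 SWCNT and at 14946, 14376 and 13789 CPM with COOH SWCNT. The values were close together with COOH SWCNT and spread several-fold within the LPS and (GT)6 SWCNT groups. It did not pass the test against control in any treatment, with 0.75 ± 0.33 (log2 fold change ± SE, adjusted p = 0.11) for COOH SWCNT and 0.90 ± 0.33 (adjusted p = 0.29) for Fura-2. Without strand, its reads and those of the ribosomal RNA gene opposite it cannot be told apart. Gm26917 lies 617 bases upstream on the same strand and stood at 148, 163 and 192 CPM in the controls and at 266, 237 and 229 CPM with COOH SWCNT. The 2 groups did not overlap, and the difference passed (0.54, adjusted p = 0.0022). Gm26917 stood at 228, 232 and 218 CPM with Fura-2, where Gm42418 was at 15919, 14946 and 16705 CPM. With LPS Gm26917 was at 245, 234 and 159 CPM, which overlaps the controls. That difference passed too, but was lost in 8 of 13 refits under other settings (adjusted p up to 0.225). With DiBASC2 it was at 248, 140 and 153 CPM, where Gm42418 was at 15127, 5760 and 5784 CPM. In every group but Fura-2 the library highest in Gm42418 was also highest in Gm26917. Whether the 2 levels go together was not tested.

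Against control, 42 of the 185 lincRNAs (22.7%) passed with LPS, where 28.3% of all genes tested passed. Of these 21 were higher (13.8% of all genes were) and 21 lower (14.5% were). The call is an adjusted p under 0.05 in edgeR's quasi-likelihood test over all 13116 genes. With (GT)6 SWCNT 29 passed (15.7%, against 20.4% of all genes), 20 higher (9.9%) and 9 lower (10.5%). With COOH SWCNT 38 passed (20.5%, against 20% of all genes), 17 higher (9.39%) and 21 lower (10.6%). The shares of lincRNAs were thus near or under those of all genes. The dyes and the virus gave fewer. With DiBASC2 6 passed (3.24%, against 5.47% of all genes), 4 higher (1.82%) and 2 lower (3.64%), and under upper-quartile scaling that split became 5 higher and 1 lower. With Di-2-ANEPEQ 6 passed (3.24%, against 3.08%), 0 higher (0.686%) and 6 lower (2.39%). With AAV 11 passed (5.95%, against 5%), 1 higher (1.84%) and 10 lower (3.16%). With Fura-2 edgeR called 0 lincRNAs, where 0.252% of all genes passed, 20 lincRNAs had an unadjusted p under 0.05 (10.8%, as of all genes), and DESeq2 called 2. In all, 78 lincRNAs (42.2%, against 46.6% of all genes) passed in at least 1 treatment and 107 in none. Among called lincRNAs 13 changed at least 2-fold with LPS (7.03%, against 4.21% of all genes), 3 with (GT)6 SWCNT (1.62%, against 1.52%), 3 with COOH SWCNT (1.62%, against 1.03%) and 1 with DiBASC2 (0.541%, against 0.0839%). The 1 with DiBASC2 was 9830132P13Rik, counted with LPS and COOH SWCNT too, and its DiBASC2 call was lost in 6 other settings. Its control mean was under 1 CPM, so it met the threshold through other groups. The shares that count it are thus not free of the choice by level. The median log2 fold change of the set was between -0.07 and 0.06 in every treatment (LPS -0.04, all genes -0.01). Because all 7 comparisons use the same 3 control libraries, their counts are not independent of each other.

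**Figure D1:**
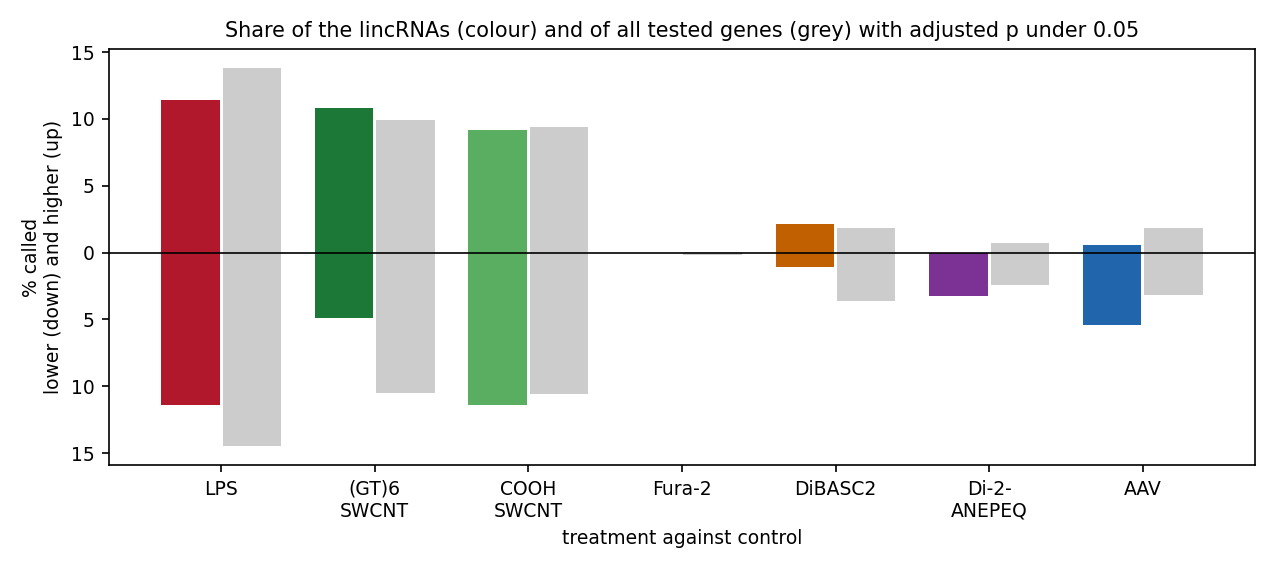
Share in percent (vertical axis) of the 185 expressed lincRNAs (coloured bars) and of all 13116 genes tested (grey bars) called higher (bars up) and lower (bars down) at an adjusted p under 0.05 in each of the 7 treatments against control (horizontal axis). LPS and the nanotubes stand at 15.7% to 22.7% of lincRNAs, the 3 dyes and AAV at 0% to 5.95%.

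Some of these counts moved with 1 library. The COOH SWCNT count of 38 became 21 without control library 1, 25 without control library 3 and 22 without COOH SWCNT library 1. Its split of 17 higher and 21 lower became 10 and 11 without the first of these, 14 and 11 without the next and 13 and 9 without the last, and 17 and 17 under upper-quartile scaling. The DiBASC2 count of 6 became 1 without control library 1, 2 without control library 3 and 3 without DiBASC2 library 1. The Di-2-ANEPEQ count of 6 became 1 without control library 1, without control library 3 or without Di-2-ANEPEQ library 2, and 3 without Di-2-ANEPEQ library 3. The AAV count of 11 became 3 without control library 1, 7 without control library 2, 3 without control library 3, 2 without AAV library 2 and 7 without AAV library 3. Single calls were refitted under 12 or 13 other settings (scalings, filters, tests and each library left out). All of these kept 24 of the 42 LPS calls, 17 of the 29 with (GT)6 SWCNT, 16 of the 38 with COOH SWCNT, 1 of the 6 with DiBASC2, 0 of the 6 with Di-2-ANEPEQ and 0 of the 11 with AAV. A setting that gave no adjusted p for a gene was not counted as a loss. The DESeq2 test gave none for the AAV calls of 6720427I07Rik, Snhg12 and 2700038G22Rik, nor for 5031425F14Rik with Di-2-ANEPEQ. A single call given below was lost in none of the settings unless a loss is given beside it.

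With LPS, 37 lincRNAs passed with no overlap between the treated and control libraries (26.9% of all genes did), and the largest rise was that of the miR-155 host. Mir155hg (chr16:84703167-84715245), whose product miR-155 is a known regulator of inflammatory signalling, stood at 2.97, 2.64 and 2.03 CPM in the controls and at 33.7, 36.5 and 36.9 CPM with LPS. All LPS libraries lay above 30 CPM and all controls under 3. The rise was 3.81 ± 0.15 on the log2 scale (14-fold, edgeR adjusted p = 7.6e-22). Its exon blocks share 65 bases with the annotated miR-155 hairpin and none with a coding gene.

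Ptgs2os2 (lincRNA-Cox2, chr1:150159043-150164948), a regulator of inflammatory genes named after its neighbour Ptgs2, stood at 4.34, 5.23 and 5.13 CPM in the controls and at 12.4, 11.8 and 13.2 CPM with LPS. The groups were well apart, and the rise was 1.34 ± 0.11 (2.53-fold, adjusted p = 2e-12). Ptgs2 itself, 50816 bases away on the opposite strand, encodes cyclooxygenase 2 and rose from 40.5 to 1209 CPM (4.90 ± 0.06). Gdap10 (chr12:32821872-32826904) stood at 6.76, 7.15 and 7.48 CPM in the controls and at 21.8, 20.3 and 16.2 CPM with LPS. Every LPS library lay at more than 2-fold the highest control, and the rise was 1.44 ± 0.12 (2.71-fold, adjusted p = 2.6e-12). Gdap10 lies within introns of Nampt, which encodes an enzyme of NAD salvage, on the same strand and with no shared exon base. Nampt rose from 237 to 299 CPM (0.34 ± 0.03), so that unspliced Nampt RNA and Gdap10 RNA cannot be told apart in these counts.

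Less studied lincRNAs rose with LPS as well. 9830132P13Rik stood at 0.495, 0.766 and 0.748 CPM in the controls and at 3.26, 2.49 and 3.18 CPM with LPS. The groups were well apart (2.13 ± 0.28, 4.37-fold, adjusted p = 7.7e-08). 1110002J07Rik stood at 1.76, 2.68 and 1.92 CPM in the controls and at 7.12, 6.74 and 5.61 CPM with LPS, again without overlap (1.58 ± 0.19, 3.0-fold, adjusted p = 1.7e-08). F730311O21Rik stood at 1.59, 2.38 and 2.67 CPM in the controls and at 4.62, 6.01 and 4.11 CPM with LPS. Its lowest LPS library was above its highest control (1.14 ± 0.20, adjusted p = 1.5e-05).

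Gm34643 lies 22520 bases from Acod1, which makes the immune metabolite itaconate, and stood at 2.80, 2.94 and 2.19 CPM in the controls and at 3.70, 4.39 and 4.30 CPM with LPS. It rose by less than its neighbour: 0.64 ± 0.17 (adjusted p = 0.0029) against 3.60 ± 0.08 for Acod1 (87.1 to 1055 CPM). Its gene body overlaps that of 4933432I03Rik on the other strand, which gained 0.60 ± 0.23 (adjusted p = 0.043). The 4933432I03Rik call was lost under upper-quartile scaling (adjusted p = 0.0591), in a fit of only the 2 groups (0.0612) and without control library 1 (0.152), control library 3 (0.218) or LPS library 1 (0.0602), 2 (0.101) or 3 (0.0826). Gm20045 gained 0.62 ± 0.21 (adjusted p = 0.026), and lost the call without control library 2 (0.0751), control library 3 (0.0523) or LPS library 2 (0.136).

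Among lincRNAs known from other settings, Xist passed with LPS, at 448, 462 and 459 CPM in the controls and 670, 550 and 520 CPM with LPS. The control libraries were close together and the LPS libraries lay above them (0.35 ± 0.07, adjusted p = 0.0001). Mir142hg, the host of the blood-cell microRNA miR-142, stood at 3.85, 3.02 and 4.33 CPM in the controls and at 6.03, 5.22 and 4.96 CPM with LPS. The groups did not overlap (0.54 ± 0.18, adjusted p = 0.022), but the call was lost without control library 2 (adjusted p = 0.162) or LPS library 1 (0.0836). Mir17hg, the host of the miR-17 cluster, gained 0.37 ± 0.11 (adjusted p = 0.0088) with libraries that overlapped, and lost the call without control library 2 (0.091), control library 3 (0.0574) or LPS library 2 (0.0591). Of the 8 lincRNAs that hold a microRNA gene on their strand, 3 passed higher and 0 lower with LPS, where 13.8% and 14.5% of all genes did. With (GT)6 SWCNT 1 passed higher (9.9% of all genes) and 0 lower (10.5%), and with COOH SWCNT 1 higher (9.39%) and 2 lower (10.6%). With Di-2-ANEPEQ 0 passed higher (0.686%) and 1 lower (2.39%), and with AAV 0 higher (1.84%) and 2 lower (3.16%). With Fura-2 (0.252% of all genes) or DiBASC2 (5.47%) none passed.

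Of the 21 lincRNAs that fell with LPS 8 had a mean of at least 10 CPM, and those that fell by the most were lower in level. 2010013B24Rik stood at 1.70, 1.40 and 2.03 CPM in the controls and at 0.598, 0.342 and 0.842 CPM with LPS. Every LPS library was under every control (-1.5 ± 0.32, adjusted p = 0.00037). Gm29154 stood at 3.13, 4.21 and 4.01 CPM in the controls and at 1.68, 1.32 and 2.43 CPM with LPS, also without overlap (-1.06 ± 0.19, adjusted p = 2.8e-05). Gm41442 (-1.29 ± 0.31), A930014D07Rik (-1.27 ± 0.33) and Gm47469 (-1.22 ± 0.33) fell too, each with at most 1.03 CPM in any LPS library. Gm15326 stood at 0.934, 1.53 and 0.961 CPM in the controls and at 0.489, 0.391 and 0.795 CPM with LPS (-1.04 ± 0.36, adjusted p = 0.026). Its nearest coding gene Map3k1, a kinase of the stress-activated cascade, lies 58943 bases away and fell from 106 to 48.4 CPM (-1.13 ± 0.05). The Gm15326 call was lost without control library 2 (adjusted p = 0.228), LPS library 1 (0.0769) or LPS library 2 (0.136).

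**Figure D2:**
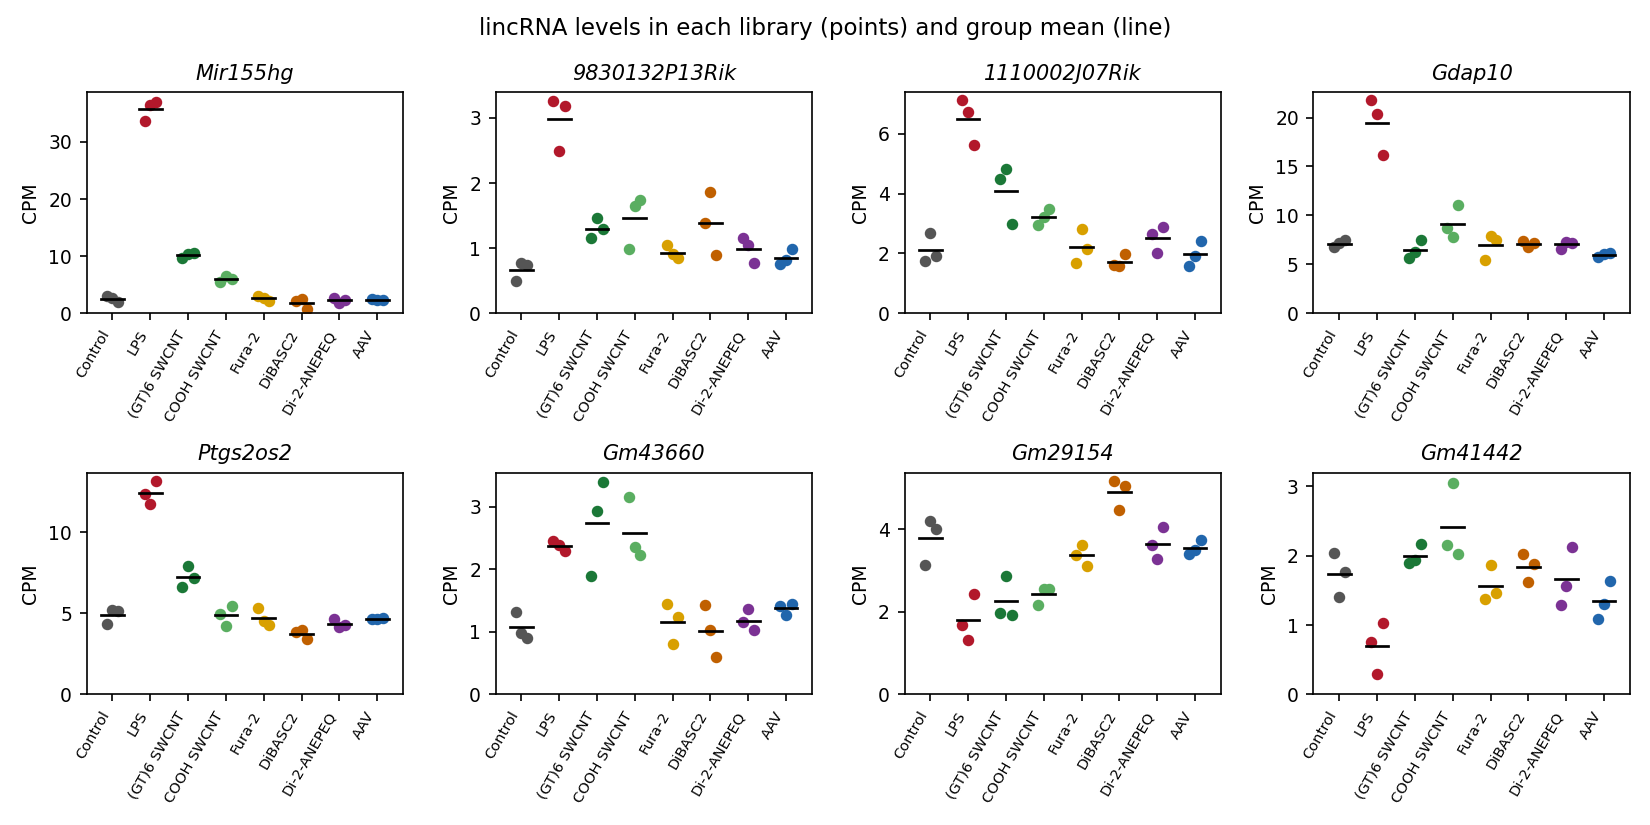
CPM (vertical axis, linear, from 0) in each of the 24 libraries (points) with the group mean (line), by group (horizontal axis), for 8 lincRNAs that followed LPS. Mir155hg rises from 2.03 to 2.97 CPM in the controls to 33.7 to 36.9 CPM with LPS, with the nanotube libraries in between.

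Some of the lincRNAs that rose with LPS also rose with the nanotubes. With (GT)6 SWCNT 27 lincRNAs passed without overlap (19.5% of all genes did) and with COOH SWCNT 37 did (19.3%). Mir155hg stood at 9.65, 10.4 and 10.5 CPM with (GT)6 SWCNT and at 5.50, 6.51 and 6.04 CPM with COOH SWCNT. Both sets of libraries lay above the controls and under LPS. The rises were 1.99 ± 0.18 (3.98-fold, adjusted p = 1.9e-11) and 1.23 ± 0.19 (2.35-fold, adjusted p = 6.3e-06). Ptgs2os2 stood at 6.61, 7.95 and 7.21 CPM with (GT)6 SWCNT, above all controls (0.56 ± 0.12, adjusted p = 0.00055), and at 4.97, 4.21 and 5.47 CPM with COOH SWCNT, among them (-0.00). Its neighbour Ptgs2 rose with both, to 133 CPM (1.72 ± 0.06) and 84.4 CPM (1.06 ± 0.06).

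F730311O21Rik passed with both nanotubes, at 4.76, 3.61 and 4.10 CPM with (GT)6 SWCNT (0.90 ± 0.20, adjusted p = 0.0008) and at 3.83, 2.91 and 4.66 CPM with COOH SWCNT (0.78 ± 0.20, adjusted p = 0.0041). 1110002J07Rik stood at 4.48, 4.82 and 2.99 CPM with (GT)6 SWCNT and at 2.96, 3.21 and 3.49 CPM with COOH SWCNT. Its lowest nanotube library was just above its highest control (0.95 ± 0.20, adjusted p = 0.00051, and 0.57 ± 0.21, adjusted p = 0.047). The COOH SWCNT call was lost without control library 1 (adjusted p = 0.181), control library 3 (0.14) or COOH SWCNT library 1 (0.0609), 2 (0.0856) or 3 (0.121). 9830132P13Rik stood at 1.15, 1.46 and 1.29 CPM with (GT)6 SWCNT (0.94 ± 0.31, adjusted p = 0.029) and at 0.986, 1.65 and 1.74 CPM with COOH SWCNT (1.09 ± 0.30, adjusted p = 0.0084). Those calls were lost without control library 1 (0.112) or (GT)6 SWCNT library 2 (0.113) for the former and without control library 1 (0.0546) for the latter. Gdap10 was at 5.67, 6.23 and 7.44 CPM with (GT)6 SWCNT, within reach of the controls (-0.16). With COOH SWCNT it was at 8.72, 7.77 and 11 CPM (0.37 ± 0.13, adjusted p = 0.041), a call lost without control library 1 (0.117), 2 (0.0903) or 3 (0.056) or COOH SWCNT library 1 (0.0525) or 3 (0.275).

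Of a pair of neighbours on chromosome 5, 523 bases apart on the same strand, only AI839979 passed a test between agents. It was higher with (GT)6 SWCNT than with COOH SWCNT or LPS, the LPS difference being lost without (GT)6 SWCNT library 2 (adjusted p = 0.0946). AI839979 stood at 6.98, 6.38 and 6.68 CPM in the controls, at 10.2, 9.67 and 9.35 CPM with LPS, at 11.9, 14.1 and 12.3 CPM with (GT)6 SWCNT and at 8.12, 8.22 and 8.68 CPM with COOH SWCNT. The (GT)6 SWCNT libraries were the highest and the controls the lowest. The changes were 0.55 ± 0.13 (adjusted p = 0.00091), 0.94 ± 0.12 (1.3e-07) and 0.32 ± 0.13 (0.07). Gm43660 stood at 1.32, 0.979 and 0.908 CPM in the controls, at 2.45, 2.39 and 2.29 CPM with LPS, at 1.89, 2.92 and 3.40 CPM with (GT)6 SWCNT and at 3.15, 2.35 and 2.23 CPM with COOH SWCNT. The 3 treated groups overlapped each other and not the controls (1.16 ± 0.27, 1.34 ± 0.26 and 1.29 ± 0.26). With so small a gap, reads that run from one of the pair into the other cannot be told apart.

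Gm37168 and C030037D09Rik passed with the nanotubes and not with LPS. Gm37168 stood at 2.91, 4.34 and 4.75 CPM in the controls, at 3.86, 4.05 and 3.46 CPM with LPS, at 8.5, 8.25 and 7.21 CPM with (GT)6 SWCNT and at 5.96, 5.61 and 6.16 CPM with COOH SWCNT. LPS lay among the controls (-0.09) and both nanotubes lay above them: 1.0 ± 0.14 (adjusted p = 1.2e-06) and 0.56 (adjusted p = 0.0061), the latter lost without control library 1 (0.0728). Against LPS directly Gm37168 differed by 1.08 ± 0.15 with (GT)6 SWCNT (adjusted p = 2.2e-07) and by 0.65 ± 0.15 with COOH SWCNT (0.0007). C030037D09Rik starts 132 bases from Msi2 in the opposite direction and stood at 0.824, 0.723 and 0.694 CPM in the controls. It was at 1.27, 1.12 and 1.93 CPM with (GT)6 SWCNT and at 1.40, 1.60 and 1.34 CPM with COOH SWCNT, all above the controls (0.91 ± 0.30, adjusted p = 0.026, and 0.95 ± 0.29, adjusted p = 0.019), while Msi2, an RNA-binding protein gene, changed by 0.04 and 0.02. Against LPS directly the C030037D09Rik differences did not pass (adjusted p = 0.35 and 0.22). Its control mean was under 1 CPM, so it met the threshold through other groups, and its nanotube calls are not free of the choice by level. The C030037D09Rik calls were lost without control library 2 (adjusted p = 0.0781 and 0.0625) or 3 (0.0753 and 0.0599), and also without (GT)6 SWCNT library 3 (0.142) or COOH SWCNT library 2 (0.0616).

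Gm14221 (chr2:160568379-160619971) went opposite ways with the 2 nanotubes. It stood at 4.12, 4.34 and 3.63 CPM in the controls, at 5.87, 5.12 and 5.27 CPM with (GT)6 SWCNT, at 2.16, 2.86 and 2.76 CPM with COOH SWCNT and at 2.72, 2.98 and 2.81 CPM with LPS. The (GT)6 SWCNT libraries lay above all controls, and the COOH SWCNT and LPS libraries under them. The changes were 0.42 ± 0.14 (adjusted p = 0.022), -0.65 ± 0.15 (0.0016) and -0.51 ± 0.15 (0.0096), and (GT)6 SWCNT against COOH SWCNT gave 1.08. Without control library 3 (adjusted p = 0.0931) or (GT)6 SWCNT library 1 (0.112) the first call was lost, and without control library 2 (0.0682) the LPS call. Gm29154 fell with both nanotubes as with LPS (-0.74 ± 0.18, adjusted p = 0.0023, and -0.66 ± 0.18, adjusted p = 0.006), and Platr27 fell with the nanotubes (-0.46 ± 0.11 and -0.44 ± 0.11) and changed by -0.02 with LPS, from which both nanotubes differed (-0.43 ± 0.11, adjusted p = 0.0028, and -0.42 ± 0.11, 0.002).

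Neat1 (chr19:5824708-5845478), the scaffold of nuclear paraspeckles, passed in 6 of the 7 treatments. It stood at 71.2, 65.8 and 59.5 CPM in the controls, at 92.2, 86.4 and 77.0 CPM with LPS, at 123, 131 and 122 CPM with (GT)6 SWCNT and at 111, 118 and 144 CPM with COOH SWCNT. With the dyes it stood at 57.3, 64.4 and 70.2 CPM for Fura-2, at 98.0, 92.2 and 107 CPM for DiBASC2 and at 51.8, 49.8 and 54.1 CPM for Di-2-ANEPEQ, and with AAV at 48.9, 51.0 and 52.9 CPM. The nanotube libraries were the highest, DiBASC2 and LPS lay above the controls, Fura-2 among them, and Di-2-ANEPEQ and AAV under them. The changes were 0.94 ± 0.08 for (GT)6 SWCNT (adjusted p = 1.7e-12), 0.92 ± 0.08 for COOH SWCNT (6.4e-12), 0.59 ± 0.08 for DiBASC2 (1e-06) and 0.38 ± 0.08 for LPS (0.0002). The falls were -0.34 ± 0.08 for Di-2-ANEPEQ (adjusted p = 0.012) and -0.36 ± 0.08 for AAV (0.0055), lost without control library 1 (0.127 and 0.0598) and, for the dye, without Di-2-ANEPEQ library 2 (0.0834). Neat1 shares exon bases only with small RNA models on its own strand, and the libraries hold its polyadenylated transcripts.

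Malat1, a nuclear speckle RNA 22036 bases from Neat1 on the same strand, passed in 2 treatments. It stood at 294, 300 and 313 CPM in the controls, at 450, 357 and 276 CPM with LPS, at 278, 273 and 354 CPM with (GT)6 SWCNT, at 390, 331 and 506 CPM with COOH SWCNT and at 494, 370 and 390 CPM with DiBASC2. Only the COOH SWCNT and DiBASC2 libraries among these lay wholly above the controls, and only those passed: 0.44 ± 0.13 (adjusted p = 0.013) and 0.47 ± 0.13 (0.024). The COOH SWCNT call was lost with DESeq2 (0.0764) and without COOH SWCNT library 3 (0.161). The DiBASC2 call was lost with DESeq2 (0.112) and without control library 1 (0.106), 2 (0.0682) or 3 (0.0518) or DiBASC2 library 1 (0.188). In the controls and with LPS, (GT)6 SWCNT and DiBASC2 the library highest in Malat1 was also the highest in Gm42418. With COOH SWCNT it was the lowest in Gm42418. Whether Malat1 goes with the level of Gm42418 in a library was not tested.

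**Figure D3:**
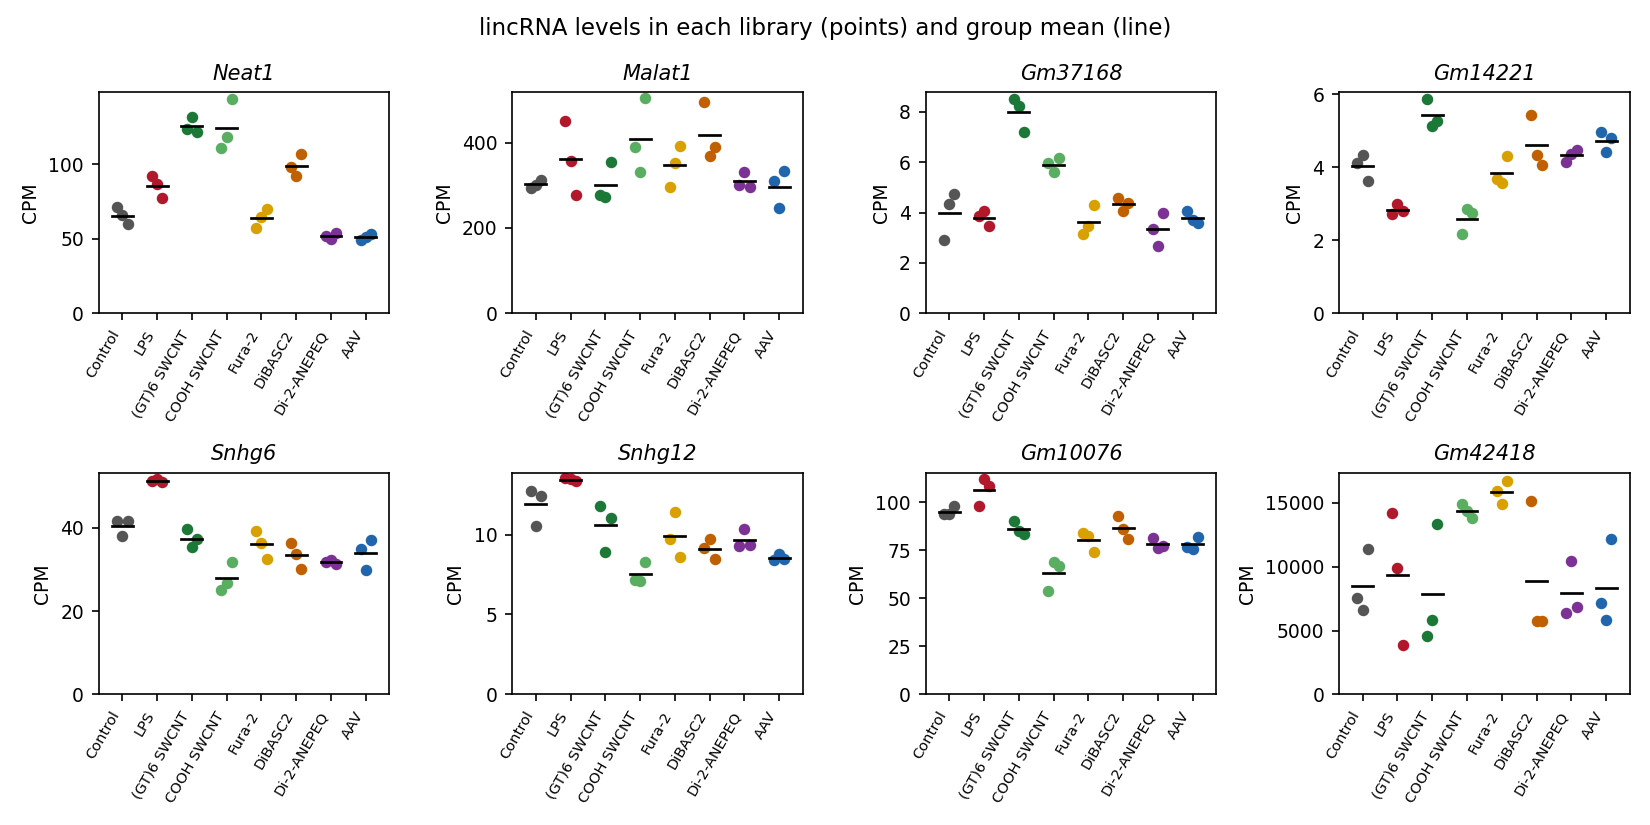
CPM (vertical axis, linear, from 0) in each of the 24 libraries (points) with the group mean (line), by group (horizontal axis), for 7 lincRNAs that followed nanotubes, dyes or AAV and for Gm42418, which passed in no treatment. Neat1 reaches 111 to 144 CPM with the nanotubes and 92.2 to 107 CPM with DiBASC2, against 59.5 to 71.2 CPM in the controls.

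Compared with LPS directly, 41 lincRNAs differed with (GT)6 SWCNT, where 21.6% of all genes differed, 22 of them higher (9.63%) and 19 lower (11.9%). With COOH SWCNT 53 differed, where 37.8% of all genes did, 24 higher (18.1%) and 29 lower (19.7%). Under upper-quartile scaling the COOH SWCNT split turned to 33 higher and 24 lower. Lower with the nanotubes than with LPS were Mir155hg (-1.81 for (GT)6 SWCNT and -2.58 for COOH SWCNT), Gdap10 (-1.60 and -1.07), 9830132P13Rik (-1.19 and -1.04) and Ptgs2os2 (-0.78 and -1.34). Higher were Gm41442 (1.5 and 1.77), A930014D07Rik (1.48 and 1.07), 2010013B24Rik (1.10 and 1.15) and Neat1 (0.56 and 0.55). The 2010013B24Rik calls were lost without LPS library 2 (adjusted p = 0.119 and 0.0582) and, for (GT)6 SWCNT, without its library 1 (0.092). These comparisons use the same LPS libraries.

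Between the 2 nanotubes 23 lincRNAs differed, where 21.4% of all genes differed, 16 of them higher with (GT)6 SWCNT (11.9% of all genes) and 7 lower (9.48%). The count was 15 without (GT)6 SWCNT library 1. Higher with (GT)6 SWCNT were Gm14221 (1.08), 1700040D17Rik (0.80), Mir155hg (0.76), AI839979 (0.62), Gm9530 (0.58) and Ptgs2os2 (0.56). Higher with COOH SWCNT were Gm20342 (-0.95), Gdap10 (-0.53) and Gm46430 (-0.38). Without (GT)6 SWCNT library 1, the calls of 1700040D17Rik (adjusted p = 0.0663) and Gm20342 (0.168) were lost, and without library 3 that of 1700040D17Rik (0.13) and without library 2 that of Gm46430 (0.0771). Without COOH SWCNT library 1 those of 1700040D17Rik (0.087) and Gm46430 (0.0571) were lost, without library 2 that of Gm20342 (0.0516), and without library 3 those of 1700040D17Rik (0.142) and Gdap10 (0.0579). The particles differ in their surface, 1 wrapped in DNA and 1 carboxylated, and no concentration is given at which they could be matched.

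Some small nucleolar RNA (snoRNA) hosts fell with COOH SWCNT, the voltage dyes or AAV. With COOH SWCNT, Di-2-ANEPEQ and AAV theirs were not the largest falls. A730063M14Rik (-0.87), 1700040D17Rik (-0.79) and B230312C02Rik (-0.75) fell by more with COOH SWCNT. So did 5031425F14Rik (-0.68) with Di-2-ANEPEQ and B930059L03Rik (-0.84) with AAV. Each of these calls was lost in at least 3 other settings. Of 7 lincRNAs that hold a snoRNA gene on their strand, 3 passed lower with COOH SWCNT (10.6% of all genes did), 2 with DiBASC2 (3.64%), 1 with Di-2-ANEPEQ (2.39%) and 4 with AAV (3.16%). With LPS 1 passed higher (13.8%). None passed either way with (GT)6 SWCNT (20.4% of all genes did) or Fura-2 (0.252%). Such hosts carry snoRNAs that guide the modification of ribosomal RNA, and their spliced exons are released as by-products or noncoding RNAs of their own. Snhg6 (host of Snord87, chr1:9941959-9944118) stood at 41.6, 38.1 and 41.7 CPM in the controls, at 51.2, 51.9 and 51.1 CPM with LPS, at 39.6, 35.4 and 37.3 CPM with (GT)6 SWCNT and at 25.2, 26.9 and 31.7 CPM with COOH SWCNT. LPS libraries lay above the controls and COOH SWCNT libraries well under them. The changes were 0.35 for LPS (adjusted p = 0.00042), -0.11 for (GT)6 SWCNT and -0.53 for COOH SWCNT (3.7e-06). With the other agents Snhg6 was at 36.3, 33.8 and 30.1 CPM for DiBASC2 (-0.27, adjusted p = 0.029), at 31.8, 32.2 and 31.4 CPM for Di-2-ANEPEQ (-0.35, 0.0079) and at 34.9, 29.9 and 37.2 CPM for AAV (-0.25, 0.048).

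The smaller falls of Snhg6 rested on single libraries. The DiBASC2 call was lost under upper-quartile scaling (adjusted p = 0.0617) and without control library 1 (0.149), control library 3 (0.118) or DiBASC2 library 2 (0.0628) or 3 (0.205). The Di-2-ANEPEQ call was lost without control library 1 (0.0636) or 3 (0.0581). The AAV call was lost with DESeq2 size factors (0.0515) and without control library 1 (0.164), control library 3 (0.183) or AAV library 1 (0.0562) or 2 (0.308).

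Snhg12, which carries H/ACA snoRNAs and Snord99, stood at 12.7, 10.6 and 12.4 CPM in the controls, at 7.17, 7.11 and 8.31 CPM with COOH SWCNT, at 9.15, 9.71 and 8.47 CPM with DiBASC2 and at 8.42, 8.77 and 8.5 CPM with AAV. All of these treated libraries lay under the controls. The falls were -0.65 (adjusted p = 2e-05), -0.38 (0.024) and -0.47 (0.0064), and -0.30 with Di-2-ANEPEQ did not pass (0.11). The DiBASC2 call was lost without control library 1 (0.156), control library 3 (0.102) or DiBASC2 library 1 (0.0543) or 3 (0.119), and the AAV call without control library 1 (0.0518) or 3 (0.0575). Snhg20 passed lower with COOH SWCNT (-0.23, adjusted p = 0.04) and AAV (-0.30, 0.025). Its COOH SWCNT call was lost under upper-quartile scaling (0.0525) and without control library 1 (0.179), 2 (0.0934) or 3 (0.057) or COOH SWCNT library 1 (0.409) or 2 (0.0754), and its AAV call without any 1 of the 3 control and 3 AAV libraries (0.0522 to 0.109). 2700038G22Rik passed lower with AAV (-0.44, 0.017), a call lost without control library 2 (0.106), control library 3 (0.0514), AAV library 2 (0.0757) or AAV library 3 (0.0548). Epb41l4aos, another host, passed against control in no treatment, with 11.7 to 12.4 CPM in the controls and 9.49 to 10.8 CPM with COOH SWCNT. Between agents it did pass. It was lower with COOH SWCNT than with LPS, and higher with (GT)6 SWCNT than with COOH SWCNT, the latter lost in 1 other setting (adjusted p = 0.0652).

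6720427I07Rik (chr13:48532905-48546500), whose exons hold the let-7a-1, let-7d and let-7f-1 genes, stood at 5.11, 4.77 and 5.29 CPM in the controls, at 3.49, 3.11 and 3.77 CPM with COOH SWCNT, at 3.15, 3.09 and 3.36 CPM with Di-2-ANEPEQ, at 3.76, 2.30 and 3.01 CPM with AAV and at 3.23, 2.96 and 3.31 CPM with Fura-2. None of these treated libraries reached the lowest control. It passed with COOH SWCNT (-0.54 ± 0.16, adjusted p = 0.017), Di-2-ANEPEQ (-0.66 ± 0.16, 0.019) and AAV (-0.74 ± 0.16, 0.0065), while Fura-2 gave -0.66 (0.066) and DiBASC2 -0.51 (0.058). The calls were lost without control library 1 (0.06 for COOH SWCNT, 0.0823 for Di-2-ANEPEQ) or 3 (0.0684 and 0.0927). They were also lost without COOH SWCNT library 1 (0.0536) or 2 (0.0689), without Di-2-ANEPEQ library 1 (0.0578), 2 (0.0889) or 3 (0.0512) and, for AAV, without AAV library 2 (0.0821).

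Between the voltage dyes 7 lincRNAs differed, where 8.95% of all genes did, 7 of them higher with DiBASC2 (3.47% of all genes) and 0 lower (5.48%). They were Neat1 (0.93), E230001N04Rik (0.59), Malat1 (0.43), 4632404H12Rik (0.41), Gm46430 (0.29), Snhg20 (0.26) and 1700020I14Rik (0.19). The calls of Neat1, 4632404H12Rik and 1700020I14Rik were kept in every other setting. The count was 4 without DiBASC2 library 1, which ended the calls of E230001N04Rik (adjusted p = 0.25), Malat1 (0.242), Gm46430 (0.203) and Snhg20 (0.211), and 14 without DiBASC2 library 3. Without DiBASC2 library 2 the calls of E230001N04Rik (0.0871), Gm46430 (0.0642) and Snhg20 (0.0892) were lost. Without Di-2-ANEPEQ library 1 those of E230001N04Rik (0.199), Malat1 (0.0977), Gm46430 (0.224) and Snhg20 (0.0815) were lost, without library 2 those of E230001N04Rik (0.167) and Snhg20 (0.0979), and without library 3 those of Malat1 (0.0935) and Snhg20 (0.0599). With DESeq2 those of E230001N04Rik (0.0526) and Malat1 (0.122) were lost, and that of E230001N04Rik also with a replicate block (0.0512) and in a fit of only the 2 groups (0.0612). All 6 that passed with DiBASC2 against control and all 6 with Di-2-ANEPEQ had libraries that did not overlap the controls (5.35% and 3.03% of all genes), as did all 11 with AAV (4.91%). The only lincRNA higher with AAV was 2900097C17Rik (0.14, adjusted p = 0.04), at 150, 144 and 144 CPM in the controls and 167, 163 and 154 CPM with AAV. That call was lost under upper-quartile scaling (0.0552) and without control library 1 (0.0519), 2 (0.101) or 3 (0.139) or AAV library 1 (0.126) or 2 (0.116). With DiBASC2, 9830132P13Rik stood at 1.39, 1.87 and 0.899 CPM, above its controls (1.05 ± 0.30, adjusted p = 0.03). That call was lost in a fit of only the 2 groups (0.057) and without control library 1 (0.169), 2 (0.0608) or 3 (0.0615) or DiBASC2 library 1 (0.0649) or 2 (0.21).

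**Figure D4:**
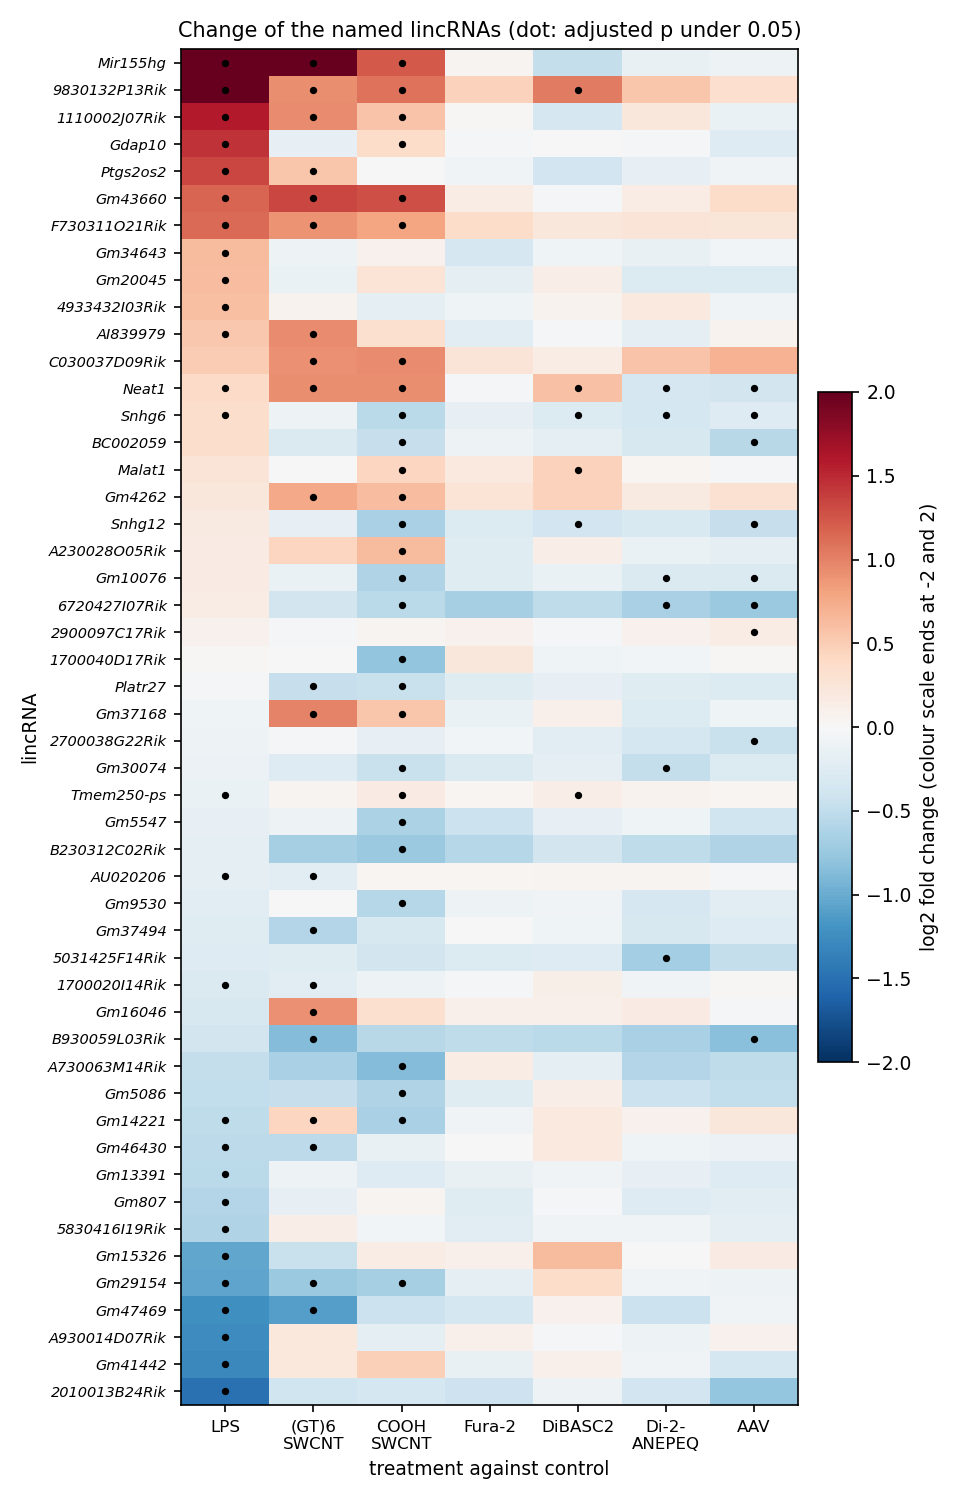
Log2 fold change against control (colour) of lincRNAs named for their changes (rows) in the 7 treatments (columns), with a dot where the change passed at an adjusted p under 0.05. Mir155hg is highest with LPS (3.81), the Neat1 row passes in 6 columns, and the Fura-2 column has no dot. The colour scale ends at -2 and 2.

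Several lincRNAs known from other cells did not pass against control. Ftx and Jpx, neighbours of Xist in the X inactivation centre, passed in no treatment, nor did Mirt1, Bvht or Gm20186. Pvt1 stood at 6.32, 6.98 and 7.42 CPM in the controls and at 6.85, 7.76 and 6.45 CPM with LPS, which overlap (0.02), while Myc, the growth regulator 47612 bases away, rose from 2.37 to 30.8 CPM (3.70 ± 0.14). Gm14005 (Morrbid), a known regulator of the adjacent death gene Bcl2l11, stood at 6.87, 7.19 and 9.51 CPM in the controls and at 7.12, 9.57 and 10.2 CPM with LPS. These overlap too (0.20, not passing), and Bcl2l11, 15772 bases away, rose from 46.7 to 95.7 CPM (1.03 ± 0.05). Between COOH SWCNT and LPS Gm14005 did pass, a call lost in 5 of 13 other settings (adjusted p up to 0.18).

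Overlap with coding exons touched few of the results. Of the 185 lincRNAs 16 share exon bases with a protein-coding gene, 4 on the same strand and 12 on the opposite strand, and 140 share none with any gene of either strand. The counting strand is not given in the sources used here, so that opposite-strand reads at shared bases cannot be told apart. Of those 16, 2 passed with LPS (12.5%), both higher, and 0 with (GT)6 SWCNT. With COOH SWCNT 2 passed (12.5%), Xist higher (0.21, adjusted p = 0.022) and Snhg6 lower. Of all genes 28.3%, 20.4% and 20% passed in these 3 treatments. The Xist call with COOH SWCNT was lost with DESeq2 (0.0761) and without control library 1 (0.0606) or COOH SWCNT library 3 (0.157). The 2 with LPS were Xist, with 431 bases (2.40%) shared with Gm26992, which is at 0 CPM in every group mean, and Snhg6, with 127 bases (11.1%) shared with Mcmdc2, which is at 0.05 CPM in the controls. The largest shared stretches were those of Gm17484 (49.9% of its exon bases, with Bag4 and Ddhd2) and Gm16973 (15.9%, with Mphosph8). Of the 140 with no shared exon base 16 passed higher and 19 lower with LPS (25%), and 17 and 8 with (GT)6 SWCNT (17.9%). With COOH SWCNT it was 11 and 16 (19.3%). These shares lay near or under the 28.3%, 20.4% and 20% of all genes. With DiBASC2 1 passed (0.714%, against 5.47% of all genes) and with Di-2-ANEPEQ 3 (2.14%, against 3.08%). With AAV 1 passed higher and 5 lower (4.29%, against 5%).

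Near-identical sequence elsewhere was more frequent. A stretch of at least 100 bases at 95% identity or more was found in another coding transcript for 32 lincRNAs and in any other transcript for 47. In Gm10076 it took 383 of 384 exon bases, at 99.5% identity with Rpl41, a ribosomal protein gene. Gm10076 stood at 93.8, 93.8 and 98.0 CPM in the controls and at 53.8, 68.8 and 67.1 CPM with COOH SWCNT, well apart (-0.60 ± 0.06, adjusted p = 7.5e-09), and Rpl41 fell from 805 to 528 CPM (-0.61). Reads of the 2 genes cannot be told apart, and the Gm10076 values are uncertain for that reason.

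**Figure D5:**
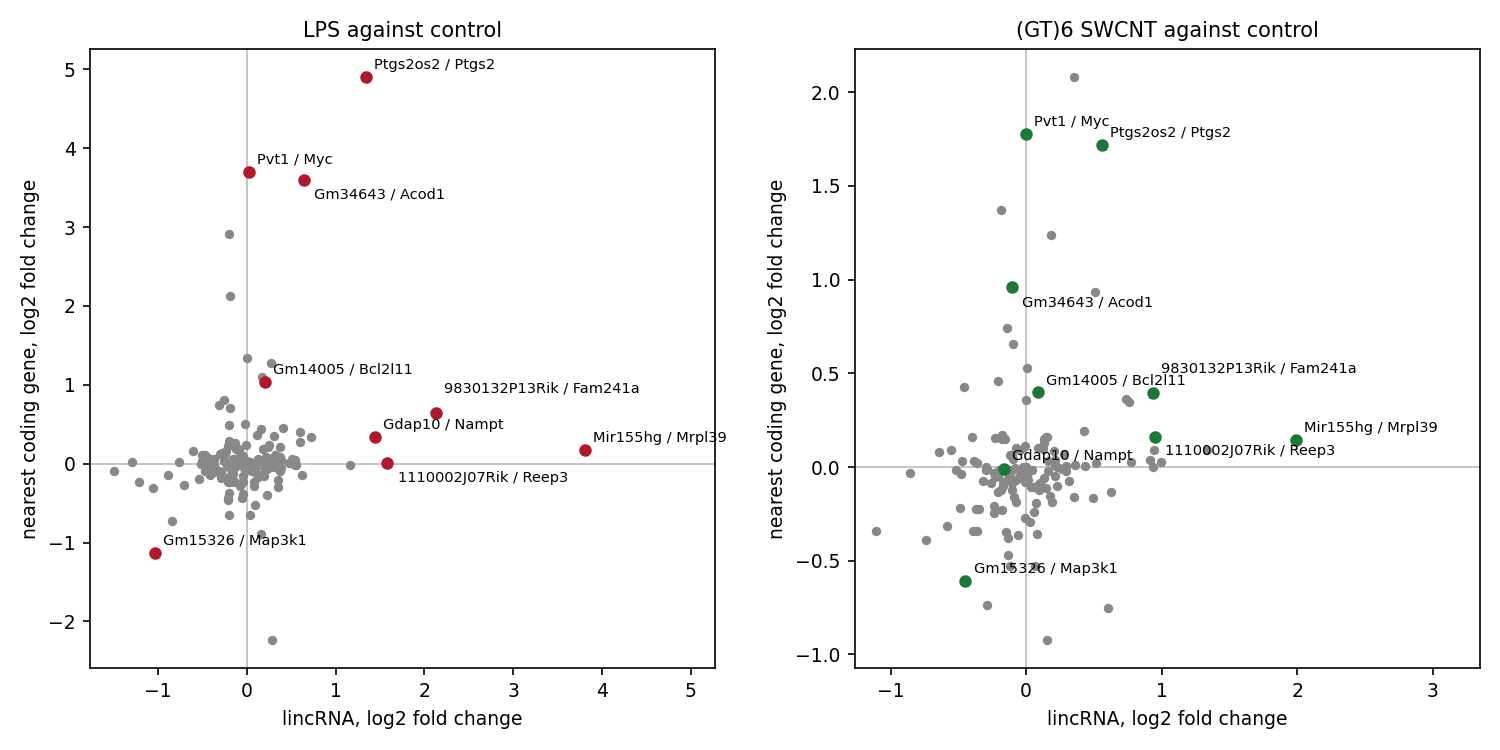
Log2 fold change against control of each lincRNA (horizontal axis) and of its nearest protein-coding gene (vertical axis), with LPS (left) and (GT)6 SWCNT (right), for the 147 pairs in which both were tested, with coloured points for labelled pairs. With LPS, Ptgs2os2 (1.34) and Gm34643 (0.64) lie beside neighbours that rose by 4.90 and 3.60, and Pvt1 (0.02) beside Myc (3.70).

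Over the 147 lincRNAs whose nearest coding gene was tested, the LPS changes of lincRNA and neighbour had a Pearson's r of 0.22 and a Spearman's rho of 0.21. With (GT)6 SWCNT they were 0.19 and 0.24, and with COOH SWCNT 0.036 and 0.062. With LPS, the 55 pairs over 10 kb apart gave 0.39 and 0.28, the 26 divergent pairs 0.17 and 0.19, and the 16 inside or across a gene body -0.031 and 0.16. Genes are not independent replicates and both share libraries and controls, so no p is given. By position, 86 lincRNAs outside coding gene bodies lay within 10 kb of one, of which 10 passed higher and 5 lower with LPS, and 74 lay farther away, of which 8 passed higher and 16 lower. Over all 185 it was 11.4% each way, and over all genes 13.8% higher and 14.5% lower. The difference between the positions was not tested. Of the 25 inside or across a coding gene body 3 passed higher and 0 lower. The 27 that start within 1 kb of a coding gene in the opposite direction held 1 higher and 1 lower call.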

How the data were processed

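Poly-A RNA of 24 SIM-A9 libraries was sequenced, 3 libraries for each of 8 groups, taken from the labels. The authors deposited raw counts per gene. Reads were aligned with STAR 2.5.4b to GRCm38.p6, per the submitters' processing notes, and the counting tool, its annotation and its strand setting are not given in the sources used here. Gene types, exons and positions came from GENCODE M21 by gene identifier, 5 of the 185 lincRNAs by identifier without version. The lincRNAs and the lists were chosen with earlier results of these data known.

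Counts were scaled by TMM and genes filtered with filterByExpr in edgeR 4.0.16 (R 4.3.3), which kept 13116 of 54838 genes. A quasi-likelihood model with 1 mean per group (16 residual degrees of freedom) gave two-sided tests, adjusted by Benjamini-Hochberg over all genes tested and called at 0.05. With total counts of 17364272 to 29259221, the lowest count of a lincRNA in any library was 5. All 185 passed the filter. Per-length levels are CPM per kilobase of exon. The calls were checked on simulated counts, with changes set in the LPS group for genes drawn from all genes kept. At a log2 fold change of 2 and -2, 32 of 33 and 29 of 34 genes were recovered. At 1 and -1 it was 30 of 33 and 26 of 33, and at 0.5 and -0.5 23 of 32 and 27 of 33. The lincRNAs, lower in level and wider in spread than all genes, were not simulated apart. Near-identical stretches were sought with BLAST 2.17.0 among GENCODE M21 transcripts.

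The lincRNAs named are those with the largest called changes whose libraries do not overlap (up to 10 each way for LPS and the nanotubes, up to 5 each way in the other comparisons), well-known lncRNAs whatever their values, the coding gene nearest to each, and those nearest the threshold. Gm17484, Gm16973, Bc1 and Gm43351 were chosen after their values were seen. Alternatives were DESeq2 1.42.0 size factors and test, upper-quartile scaling, other filters, a replicate block, fits of only the 2 groups compared, stricter membership and leaving out each library. A membership without shared exons, coding gene bodies or near-identical stretches was chosen after seeing the data.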

Additional observations from a re-analysis of the deposited data

How the results depend on the processing

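Of the counts of called lincRNAs, those for LPS and the nanotubes against control stayed within 1.5 times under every other scaling, filter, test and design, and no single call changed sign. With Fura-2 the count of 0 became 6 without a low-count filter, 2 with DESeq2 and 4 in a fit of only the 2 groups. With AAV it became 6 with DESeq2, and between the voltage dyes 13 under upper-quartile scaling and 13 without a filter. Of all genes 5.47% passed with DiBASC2, 3.08% with Di-2-ANEPEQ, 5% with AAV and 8.95% between the voltage dyes. As a share of lincRNAs, those without shared exon bases gave 0.714% for DiBASC2, 2.14% for Di-2-ANEPEQ and 2.14% between those dyes. Those of at least 2 CPM gave 5.13% for Di-2-ANEPEQ and 5.98% between the dyes. Without coding gene bodies and near-identical stretches as well, a set chosen after seeing the data, the shares were 1.01% for DiBASC2, 2.02% for Di-2-ANEPEQ, 2.02% for AAV and 2.02% between the dyes. The cause was not tested.

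Leaving out 1 library gave 34 to 43 calls for LPS, 23 to 25 for (GT)6 SWCNT, 21 to 30 for COOH SWCNT, 0 to 1 for Fura-2, 1 to 5 for DiBASC2, 1 to 7 for Di-2-ANEPEQ and 2 to 8 for AAV. The ranges were 34 to 46 for (GT)6 SWCNT against LPS, 42 to 59 for COOH SWCNT against LPS, 15 to 24 between the nanotubes and 4 to 14 between the voltage dyes. Low counts limit the precision of these lincRNAs, the lowest being 5 in a library.

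No pairing by replicate number was seen in the deviations of libraries from their group means. Of 84 same-numbered pairs 0 correlated above 0.1, and 5 of 24 libraries correlated best with their own number. Whether same-numbered libraries shared a culture or plate was not tested. With the number as a replicate block the counts were 41 for LPS, 29 for (GT)6 SWCNT, 34 for COOH SWCNT, 0 for Fura-2, 6 for DiBASC2, 6 for Di-2-ANEPEQ, 11 for AAV, 42 and 54 for the nanotubes against LPS, 22 between the nanotubes and 7 between the voltage dyes.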

Other observations

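A few lincRNAs beside strongly induced immune genes did not pass with LPS. These pairs were chosen after their values were seen. Tnfsf9, which encodes a ligand that costimulates T cells, rose from 19.3 to 146 CPM with LPS (2.91 ± 0.06), while Gm11110, which overlaps its gene body on the opposite strand, changed by -0.21 ± 0.17 (edgeR adjusted p = 0.42). Atf3, a stress-induced transcription factor, rose from 97.9 to 426 CPM (2.12 ± 0.04), while D730003I15Rik, 6415 bases away on the opposite strand, changed by -0.19 ± 0.17 (0.48). Il1rn, which encodes the interleukin-1 receptor antagonist, rose from 580 to 1466 CPM with LPS (1.34 ± 0.08) and to 2450 CPM with (GT)6 SWCNT (2.08 ± 0.08), while Gm13411, 13897 bases away on the same strand, changed by -0.00 ± 0.25 and 0.35 ± 0.24 (0.36). The difference between each lincRNA and its neighbour was not tested.

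Below the threshold of 1 CPM a further 174 lincRNAs were tested. Of these 13 passed with LPS, 7 with (GT)6 SWCNT and 6 with COOH SWCNT, where 28.3%, 20.4% and 20% of all genes did, and edgeR called none with the dyes or AAV.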
